A study of Mus musculus with 4 samples.

Results

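The genes described here were 8 members of the transforming growth factor beta (TGF-beta) system: the ligand gene Tgfb1, the receptor genes Tgfbr1 and Tgfbr2, the signal carrier Smad3, the inhibitors Smad7, Ski and Skil, and Tgfbi, the gene of a secreted matrix protein named for its induction by TGF-beta. They were picked by symbol, and each symbol matched 1 row in both gene tables, so all 8 were found among 32285 genes listed for the CD45 sort and 31053 listed for the T cell sort. Their levels by cell class and their ratios between ZsG-positive and ZsG-negative libraries had been seen in these same data when they were picked. Those values are therefore given as a description of the libraries, without a test.

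The cells came from B16-ZsG tumors, grown from the single brightest clone of the mouse melanoma line B16-F10 after it received a doxycycline-inducible ZsGreen (ZsG) gene, a green fluorescent protein. Wild-type C57BL/6 mice carried the tumors under the skin, drank doxycycline before harvest in every group, and were taken at day 8 after injection. Infiltrating CD45+ leukocytes were divided by fluorescence into ZsG-negative and ZsG-positive cells to ask which immune cells carry tumor material, and a second sort did the same for T cells alone. The first sort gated bright cells as ZsG-positive, so dimly ZsG-positive lymphocytes went into its ZsG-negative library.

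Each of the 4 groups was 1 droplet library without a replicate, and the number of mice behind each was not given in the sources used here. No value below therefore has a spread between mice. Intervals are exact 95% intervals (Poisson for levels, conditional binomial for ratios, Clopper-Pearson for shares of cells) and cover counting error only. The CD45 sort kept 4699 ZsG-negative cells (median 5769 UMIs, unique molecular identifiers that count single RNA molecules) and 4123 ZsG-positive cells (median 9928). The T cell sort kept 659 ZsG-negative cells (median 5799) and 780 ZsG-positive cells (median 6501) that passed a minimum share of CD3 UMIs. Only 6 barcode sequences occurred in both CD45 libraries and 1 in both T cell libraries. For the T cell sort, the libraries were assigned by the file names in the sample descriptions, while an internal library name reads the other way round. With the other assignment, every log2 ratio given for that sort would change its sign and keep its size. With the assignment used, cells like regulatory T cells were 28 of 659 ZsG-negative and 106 of 780 ZsG-positive cells. The study reported regulatory T cells enriched among its ZsG-positive T cells, the same direction.

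The genes lie on mouse build GRCm38 at chr7:25687002-25705077 (Tgfb1), chr4:47353222-47414931 (Tgfbr1), chr9:116084293-116175360 (Tgfbr2), chr9:63646767-63757994 (Smad3), chr18:75367529-75395935 (Smad7), chr4:155154075-155222592 (Ski), chr3:31095058-31122577 (Skil) and chr13:56609523-56639562 (Tgfbi), each annotated as protein coding.

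TGF-beta is secreted in a latent form and must be activated, for example by integrins, before it binds its type II receptor, which recruits the type I receptor. The receptor pair phosphorylates SMAD2 and SMAD3, which enter the nucleus with SMAD4 and turn target genes on or off. SMAD7 blocks the receptor and SKI and SKIL block the SMAD complex on DNA, and all belong to negative feedback. In tumors the pathway is known for restraining effector T cells and NK cells and for supporting regulatory T cells, and macrophages are a known source of both the ligand and of TGFBI.

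RefSeq upstream windows matched 6 of the 8 members. The windows of Tgfbi, read mostly in myeloid cells, and of the receptor gene Tgfbr2 are printed. Both genes are followed below, and their windows differ in the motifs searched. Capitals mark the matches, 5′ to 3′ on each gene's own strand, of the SMAD motif CAGAC (read GTCTG on the opposite strand), the PU.1 motif GAGGAA and the RUNX motif TGTGGT. Both end just before the annotated gene start, at chr13:56609336-56609522 on the plus strand for Tgfbi and chr9:116175364-116175613 on the minus strand for Tgfbr2 (GRCm38.p6).
Tgfbi: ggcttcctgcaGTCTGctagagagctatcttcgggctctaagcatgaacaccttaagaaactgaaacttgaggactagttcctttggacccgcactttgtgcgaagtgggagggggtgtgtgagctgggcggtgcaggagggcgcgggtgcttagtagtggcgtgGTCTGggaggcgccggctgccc
Tgfbr2: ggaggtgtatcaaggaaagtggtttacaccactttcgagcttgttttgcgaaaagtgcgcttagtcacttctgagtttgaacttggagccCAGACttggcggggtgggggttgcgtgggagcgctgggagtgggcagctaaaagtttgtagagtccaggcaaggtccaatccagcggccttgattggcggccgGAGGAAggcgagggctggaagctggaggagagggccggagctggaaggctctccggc
The Tgfbi window held 2 SMAD matches and 0 of either other motif. Of 32851 RefSeq promoters cut to that length, 34.2% held at least 1 SMAD match, 17.8% a PU.1 and 10.8% a RUNX match. The share of promoters with 2 SMAD matches was not counted. The Tgfbr2 window held 1 SMAD and 1 PU.1 match, and 42.2% and 23.3% of all promoters of its length held these, while its 0 RUNX matches stand beside 14.0%. The windows of Tgfb1, Smad3, Ski and the first of the Tgfbr1 starts held none of the 3 motifs, and that of the other Tgfbr1 start held 1 SMAD and 1 PU.1 match. These are letter matches, and no binding was measured.

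Tgfbi was read mostly in macrophages and monocytes. In the ZsG-positive library, 2378 macrophage-like cells held 616 CPM of Tgfbi (607 to 624), that is UMIs per 1000000 UMIs of the same cells, and 775 monocyte-like cells held 542 (523 to 561). The 253 monocyte-like cells of the ZsG-negative library held 385 CPM (360 to 412), and only 4 macrophage-like cells were found there. Macrophages were 1.14-fold above monocytes within the ZsG-positive library, a log2 ratio of 0.18 (0.13 to 0.24). A gene is said to be past the limit below when the ratio exceeded 1.5-fold in either direction and both groups together held at least 20 UMIs, and this ratio was not. By library, monocyte-like cells gave 81.0% of the Tgfbi UMIs of the ZsG-negative library while holding 5.38% of its UMIs. In the ZsG-positive library macrophage-like cells gave 75.6% while holding 63.2% of its UMIs. Monocyte-like cells there gave 12.3% while holding 11.7%, so these shares lay closer to those of all UMIs.

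Dendritic cells (DCs) followed, with a gap between libraries. DC2-like cells, the Cd209a-led class, held 87.2 Tgfbi CPM in the ZsG-negative and 381 in the ZsG-positive library. DC1-like cells held 72.5 and 181, and the ZsG-positive mature DC-like cells, led by Fscn1 and Ccl22, held 235. The macrophage transcripts C1qa, C1qb and Lyz2 moved with these levels, at a summed 527 CPM in ZsG-negative and 3092 in ZsG-positive DC1-like cells and 3876 in mature DC-like cells, and their part was not tested. In pDC-like cells, the plasmacytoid type that makes interferon, the level was 8.23 CPM in the ZsG-negative library. NK cell/ILC-like and T cell-like cells were at the bottom with 0.65 and 2.11 CPM in the ZsG-negative library and 22.6 and 30.3 in the ZsG-positive library. B cell-like cells of the ZsG-negative library held 0 Tgfbi UMIs in 39 cells, with an exact upper end of 9.03% for the share of cells with a UMI.

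The share of cells with at least 1 Tgfbi UMI gave the same order at both ends. It was 91.4% in macrophage-like cells at a median depth of 11372.5 UMIs (62.0% after thinning each cell to 2000 UMIs), and 0.398% in ZsG-negative NK cell/ILC-like cells at a median of 4584 (0.0797% thinned). NK cells are not known as a source of Tgfbi, and whether their share is background was not tested. ZsG-positive T cell-like cells had a share of 16.7% (4.17% thinned) and ZsG-negative ones 1.43% (0.196% thinned). In the ZsG-positive library the share in NK cell/ILC-like cells was 9.73% (4.96 to 16.8), beside 12.0 to 22.3 for the interval of T cell-like cells. Thinned, it was 4.46% (1.47 to 10.1), beside 1.92 to 7.76. Both pairs of intervals overlapped. Thinning left out 10, 4, 6 and 18 kept cells in the CD45 ZsG-negative, CD45 ZsG-positive, T cell ZsG-negative and T cell ZsG-positive libraries.

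**Figure D1:**
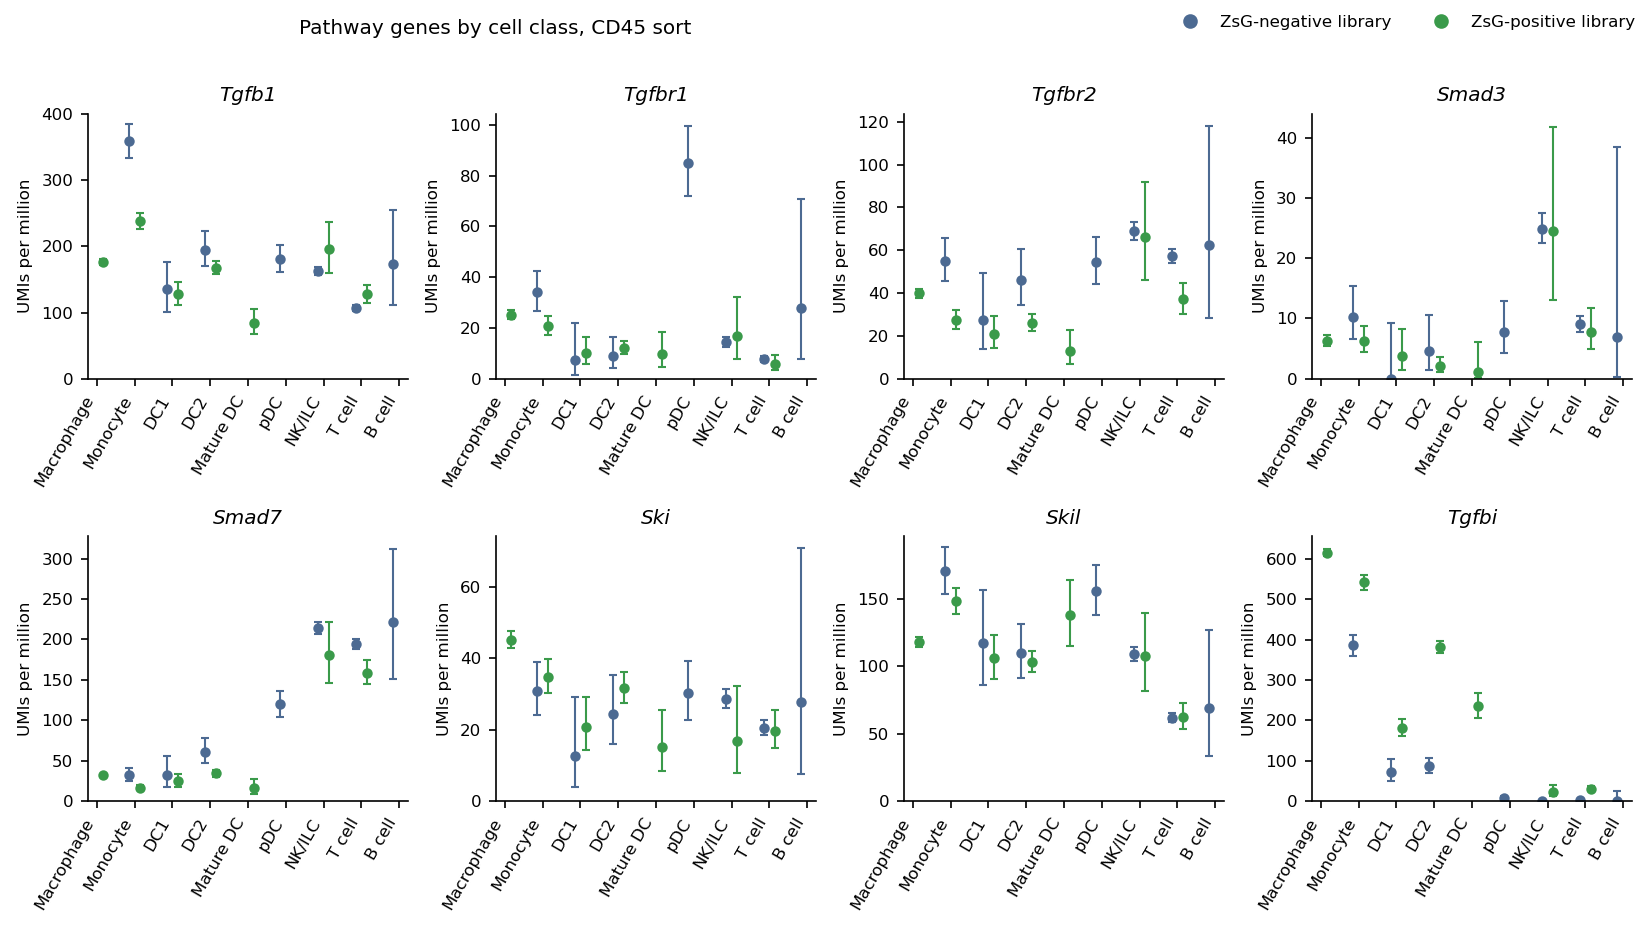
Levels of the 8 genes in CPM (vertical axes, linear, each from 0) for each cell class of the CD45 sort with at least 20 cells, as points with exact 95% counting intervals for the ZsG-negative and ZsG-positive library. Tgfbi stands highest in macrophages (616) and monocytes (385 and 542), Smad7 in NK, T and B cells, and Tgfbr1 in pDCs (85.0).

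Tgfb1, the ligand gene, was read in every class and had no class at 0. Monocyte-like cells held the highest level, 359 CPM (335 to 385) in the ZsG-negative and 238 (226 to 251) in the ZsG-positive library. Macrophage-like cells held 176 (172 to 181), DC2-like cells 195 and 167, pDC-like cells 181 and NK cell/ILC-like cells 163 and 196, and the intervals of macrophage-like, pDC-like, B cell-like and ZsG-positive DC2-like cells overlapped. T cell-like cells held 107 and 128, and mature DC-like cells 84.6, the lowest of the classes shown. Within monocytes the cluster led by Hpgd and Hp held 373 CPM in the ZsG-negative library. Its leading genes include the non-classical markers Ace and Treml4 and also the classical markers Hp and Chil3. Every gene of both marker lists was raised in it over the other cells. The cluster led by Vcan and Chil3, markers of classical monocytes, held 310 in that library.

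Against pooled T cell-like and NK cell/ILC-like cells (131 CPM), pooled monocyte- and macrophage-like cells (196) were higher for Tgfb1 by a log2 ratio of 0.57 (0.52 to 0.62). Over 13288 genes with at least 20 UMIs in this comparison, 25.4% were higher and 38.5% lower past 1.5-fold, and the median log2 ratio was -0.28. Of the 8 genes, 4 were higher past 1.5-fold in monocytes and macrophages (Tgfbi, Tgfbr1, Ski and Skil) and 3 were lower (Tgfbr2, Smad3 and Smad7), with Tgfb1 just short of the limit. Leaving mitochondrial and ribosomal protein genes out of the totals lowered every log2 ratio of monocytes and macrophages by 0.28, and Tgfb1 then stood at 0.29. Ski and Skil, 2 of the 4 higher genes, then fell short of the limit. With cells limited to 5% mitochondrial UMIs, Tgfbr2 fell short of the limit at 0.50 on the lymphocyte side.

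Nearly all macrophages came from the ZsG-positive and nearly all NK cells from the ZsG-negative library, so the same levels were read within each library. For Tgfb1, monocytes and macrophages against T cell-like and NK cell/ILC-like cells gave 357 against 131 in the ZsG-negative and 186 against 138 in the ZsG-positive library. Tgfbr1 gave 34.1 against 10.5 and 24.5 against 7.41. Tgfbr2 gave 54.5 against 62.2 and 37.9 against 41.5, a smaller gap than the pooled one, with overlapping intervals in both libraries.

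Pooled over both libraries, the receptor genes went apart, while the Tgfbr2 gap was smaller within each library, as given above. Tgfbr2, the type II receptor that binds the ligand, was 60.4 CPM in T cell-like and NK cell/ILC-like cells and 38.8 in monocytes and macrophages, a log2 ratio of 0.64 (0.55 to 0.73). Tgfbr1, the type I receptor that carries the signal on, was 10.2 and 25.0, a log2 ratio of -1.29 (-1.46 to -1.12). The order of classes for Tgfbr2 in the ZsG-negative library began with NK cell/ILC-like cells at 69.0 (64.9 to 73.3) and ran through B cell-like cells at 62.2 on 9 UMIs, T cell-like cells at 57.1, monocyte-like cells at 55.0, pDC-like cells at 54.3 and DC2-like cells at 45.9. Each neighbouring pair in that order had overlapping intervals, while those of NK cell/ILC-like and T cell-like cells did not overlap. This order is of the CD45 sort only. ZsG-negative cells of the T cell sort held a mean of 93.8 CPM with their classes weighted equally, above both. ZsG-positive macrophage-like cells held 39.8 and mature DC-like cells 13.

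Tgfbr1 was highest in pDC-like cells, with 85.0 CPM (72.1 to 99.5) and a UMI in 53.2% of 203 cells. The next class was ZsG-negative monocyte-like cells at 34.0 (26.8 to 42.5), where the Hpgd-led cluster held 40.3 and the Vcan-led cluster 12.0. The pDC-like interval overlapped that of no other class with at least 20 cells, and the nearest was that of the 39 B cell-like cells, which rested on 4 UMIs and reached 70.8.

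Among the signal genes, Smad3 was highest in NK cells and Smad7 in lymphocytes by class of the CD45 sort. Smad3 was 24.9 CPM in ZsG-negative NK cell/ILC-like cells, against 10.3 (6.52 to 15.4) in monocyte-like and 9.0 (7.74 to 10.4) in T cell-like cells of that library, whose intervals overlapped. The T cell-like clusters there held 3.86 (led by Ifng and Pdcd1), 19.0 (Bcl11b and Icos) and 23.1 (S1pr1 and Klra6). The NK cell/ILC-like clusters ran from 9.71 to 36.9, so the 2 classes overlapped by cluster. In the ZsG-positive library Smad3 was 24.5 in NK cell/ILC-like cells, 7.74 in T cell-like, 6.29 in monocyte-like and 6.24 in macrophage-like cells. The Smad7 inhibitor was 214 in NK cell/ILC-like, 194 in T cell-like and 221 in B cell-like cells of the ZsG-negative library, and 32.0 in macrophage-like cells of the ZsG-positive library. Pooled T cell-like and NK cell/ILC-like cells were higher than monocytes and macrophages for Smad7 by a log2 ratio of 2.74 (2.66 to 2.83). For Smad3 the pooled log2 ratio was 1.24 (1.03 to 1.46), and the gap was smaller within each library. The Smad3 levels in the ZsG-negative library were 15.8 (14.6 to 17.2) and 10.6 (6.81 to 15.8), with overlapping intervals. In the ZsG-positive library they were 10.4 (7.23 to 14.4) and 6.25 (5.48 to 7.10), with intervals apart. Within T cells of the ZsG-negative CD45 library, Smad7 was 408 in the cluster led by S1pr1 and Klra6, which also has the naive markers Lef1, Il7r and Tcf7 among its leading genes. It was 126 in the cluster led by Ifng and Pdcd1 and 265 in the cluster led by Bcl11b and Icos, and the ZsG-positive library gave 429, 125 and 251 for the same 3 clusters.

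For the other inhibitors, the gap between myeloid cells and lymphocytes was smaller than for Smad7. Ski, a corepressor of SMAD complexes, was highest by class of the CD45 sort in macrophage-like cells at 45.2 CPM. In the ZsG-negative library it was 30.9 (24.0 to 39.0) in monocyte-like and 28.6 (25.9 to 31.4) in NK cell/ILC-like cells, with overlapping intervals, then 24.3 in DC2-like and 20.5 in T cell-like cells, and ZsG-positive mature DC-like cells held 15.2. The ZsG-negative T cell-like clusters differed, with 14.5 in that led by Ifng and Pdcd1, 33.3 in that led by S1pr1 and Klra6 and 40.7 in that led by Bcl11b and Icos. In the ZsG-negative library of the T cell sort, Ski ran from 8.10 in cycling to 89.7 in Th1-like cells. Skil, its relative, was 170 in ZsG-negative monocyte-like, 156 in pDC-like, 138 in mature DC-like and 118 in macrophage-like cells. NK cell/ILC-like cells at 109 stood beside DC2-like cells at 110 in the ZsG-negative library, and T cell-like cells were lowest among the classes with over 100 cells at 61.9. The pooled log2 ratio of T cell-like and NK cell/ILC-like cells over monocytes and macrophages was -0.86 (-0.98 to -0.75) for Ski and -0.63 (-0.69 to -0.56) for Skil. Both fell short of the limit with the totals changed as above (-0.58 and -0.35) and with per-cell means (-0.35 and -0.33). Within the ZsG-negative library the Ski levels were 24.0 and 31.5, with overlapping intervals. In the ZsG-positive library they were 19.3 (14.9 to 24.6) and 43.6 (41.5 to 45.7), with intervals apart. For Skil, ZsG-negative monocyte-like cells gave 10.0% of its UMIs while holding 5.38% of all UMIs. T cell-like cells there gave 33.1% while holding 49.0%, and NK cell/ILC-like cells 43.8% while holding 36.9%. In the ZsG-positive library monocyte-like cells gave 14.9% while holding 11.7%, and macrophage-like cells 64.1% while holding 63.2%. T cell-like cells there gave 3.04% while holding 5.64%, and NK cell/ILC-like cells 0.974% while holding 1.05%.

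Macrophage and monocyte clusters differed among themselves within the ZsG-positive library. Comparing the macrophage- with the monocyte-like class, 1 of the 8 genes was past 1.5-fold higher (Smad7, 32.0 against 16.3, log2 ratio 0.97, 0.67 to 1.29) and 0 were lower, while 29.3% of 11677 genes were higher and 8.19% lower. Smad7 also differed between macrophage clusters. Macrophage-like cells of the cluster led by Mmp12 and Inhba, whose leading genes also include Nos2, the heat-shock genes Hspa1b and Hspa1a and the hypoxia-induced Egln3 and Ndrg1, held 89.9 Smad7 CPM, and those of the main cluster led by Ms4a7 and Ccl8 held 21.1, a log2 ratio of 2.09 (1.88 to 2.30). The median depth was 6527 UMIs in the Mmp12-led and 11616.5 in the Ms4a7-led cells, and the part of depth or of the heat-shock genes in this ratio was not tested. Tgfbr2 was lower in the Mmp12-led cluster, 23.8 against 41.4, a log2 ratio of -0.80 (-1.14 to -0.47). These were the 2 of 8 genes past the limit between the clusters, 1 in each direction, where 13.2% of all genes were higher and 28.7% lower. Tgfbi was 493 against 632 and Tgfb1 153 against 183, both short of the limit.

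**Figure D2:**
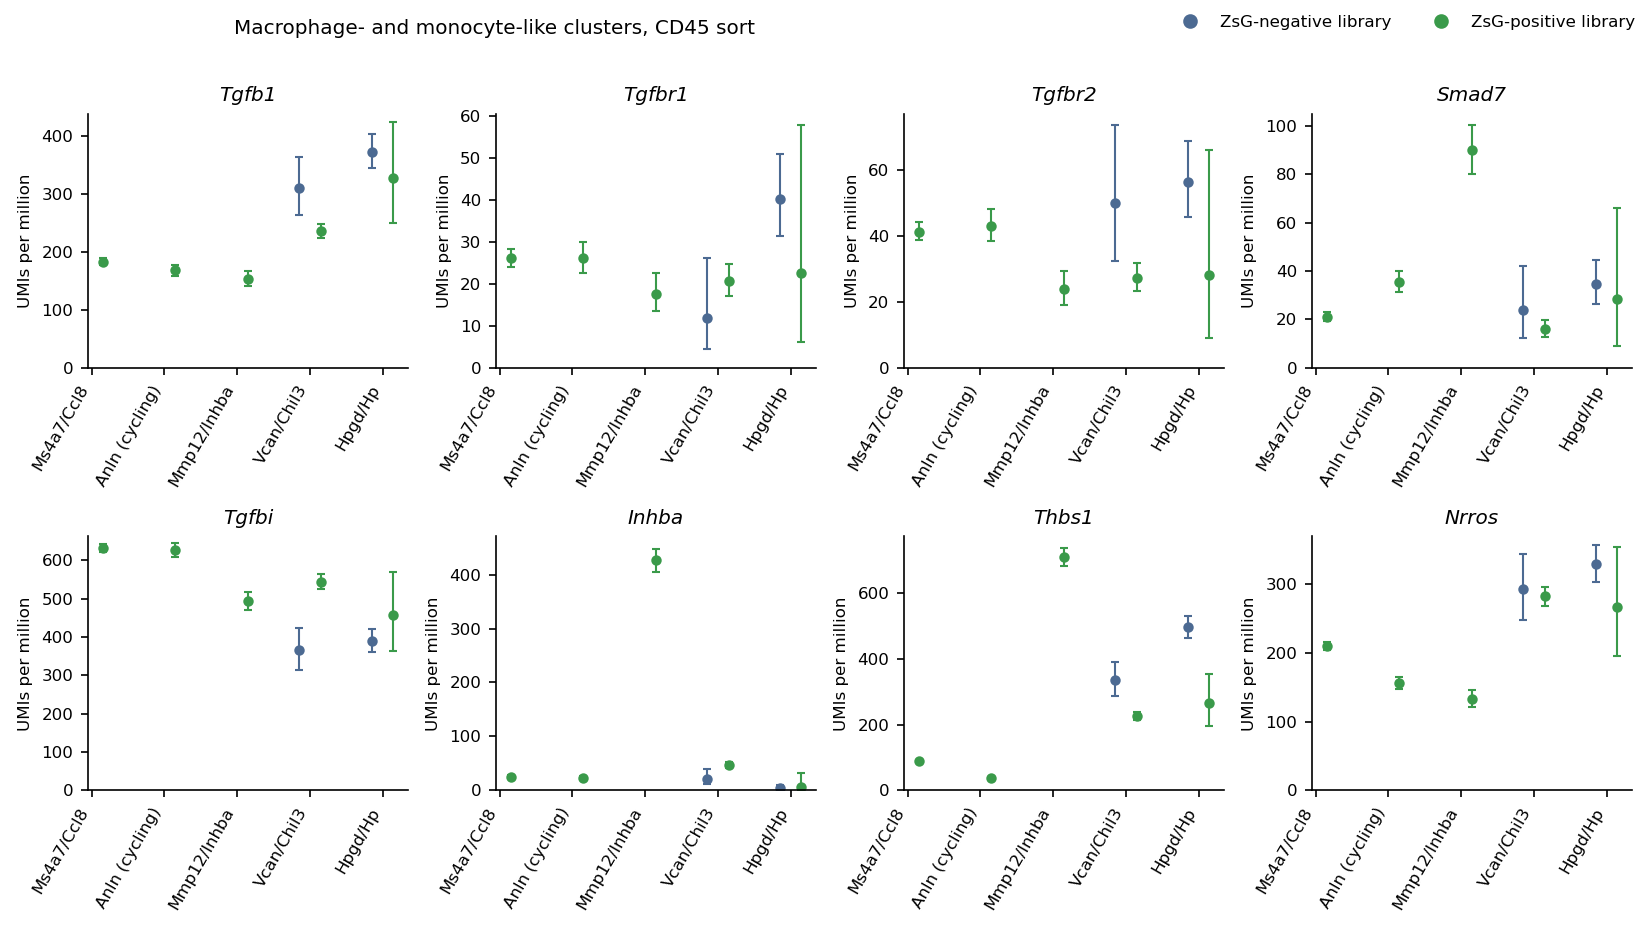
Levels in CPM (linear axes from 0, exact 95% counting intervals) of Tgfb1, Tgfbr1, Tgfbr2, Smad7 and Tgfbi and of the pathway genes Inhba, Thbs1 and Nrros in the macrophage- and monocyte-like clusters of the CD45 sort, named by their leading genes. The Mmp12/Inhba cluster stands above the other macrophage clusters for Smad7 (89.9), and Inhba and Thbs1 are among its leading genes.

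Other genes of ligand activation were counted from a list of 53 pathway genes fixed for this purpose. Between monocytes/macrophages and T/NK cells, 46 had enough UMIs, of which 24 were higher in monocytes and macrophages and 10 lower. Of all genes, 25.4% were higher and 38.5% lower. The median log2 ratio of the pathway genes was 0.63 beside -0.28 for all genes. Receptors made up 7 of the 24 higher pathway genes, with 1 lower. The 4 furthest genes were Acvrl1, a type I receptor of the family (85.9 against 0.79 CPM), Mmp14, a protease that can release TGF-beta (55.2 against 0.54), Inhba, which codes for an activin subunit (62.4 against 0.85), and Thbs1, the thrombospondin that activates latent TGF-beta (175 against 2.87). On the lymphocyte side, Pmepa1, a feedback inhibitor and target of the pathway, led with 77.0 against 6.07 CPM, followed by Bmpr1a, Cdkn2b and Tgif2.

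Within the ZsG-positive library, 40 pathway genes had enough UMIs between macrophage- and monocyte-like cells, 8 higher and 8 lower. Of all genes, 29.3% were higher and 8.19% lower. The median log2 ratio of the pathway genes was -0.09 beside 0.21 for all genes. Mmp14 was 65.2 in macrophages against 21.4 in monocytes, and Id3, a known target gene, was 50.2 against 147. Between the Mmp12-led and the Ms4a7-led cluster, 39 genes had enough UMIs, 10 higher and 5 lower, beside 13.2% and 28.7% of all genes. Thbs1 was 708 against 89.2 and Inhba 426 against 25.5. Both are leading genes of the Mmp12 cluster, ranked by their fold over the other cells after clustering. Pathway genes were left out of the genes used to cluster. Nrros, which tethers latent TGF-beta on myeloid cells, was 133 against 210, a log2 ratio of -0.66 (-0.80 to -0.52).

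Monocytes were present in both CD45 libraries. Of the 8 genes, 0 were higher and 5 lower past 1.5-fold in ZsG-positive monocyte-like cells, where 14.8% of 9277 genes were higher and 25.1% lower. Tgfbr2 was 27.3 against 55.0 CPM (log2 ratio -1.01, -1.36 to -0.66), Smad7 16.3 against 32.2 (-0.98, -1.44 to -0.52) and Tgfb1 238 against 359 (-0.59, -0.72 to -0.46). Tgfbr1 (-0.71, -1.14 to -0.28) and Smad3 (-0.71, -1.50 to 0.11) were the others. Tgfbi went the other way at 542 against 385, a log2 ratio of 0.49 (0.38 to 0.60), short of the limit.

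The clusters behind the class were not the same in the 2 libraries. The Hpgd-led cluster gave 200 of the 253 ZsG-negative monocyte-like cells, and the Vcan-led cluster 742 of the 775 ZsG-positive ones. Within the Vcan-led cluster, ZsG-positive over ZsG-negative gave log2 ratios of -0.87 (-1.49 to -0.20) for Tgfbr2, -0.40 (-0.64 to -0.15) for Tgfb1 and 0.57 (0.36 to 0.80) for Tgfbi. The ZsG-negative side of that cluster was 53 cells. Smad3 (-1.01, -2.28 to 0.53) and Smad7 (-0.59, -1.47 to 0.41) had intervals that included 0 there, and Tgfbr1 stood at 0.78 (-0.38 to 2.26), opposite in sign to the class. Within the Hpgd-led cluster, with 33 ZsG-positive cells, the 5 genes had intervals that included 0. Tgfbr2 was 28.3 against 56.4 CPM there, Tgfbr1 22.6 against 40.3, Tgfb1 328 against 373 and Smad7 28.3 against 34.5, while Smad3 was 17.0 against 9.79 on 3 and 17 UMIs, opposite to the class.

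DC2-like cells had more Tgfbi in the ZsG-positive library. With 381 against 87.2 CPM, the log2 ratio was 2.13 (1.83 to 2.43). It was the only member of 7 with enough UMIs that was higher past 1.5-fold, beside 20.5% of 9589 genes, and Tgfbr2 (26.2 against 45.9, -0.81) and Smad7 (34.2 against 61.2, -0.84) were lower, beside 17.2%. Macrophage markers moved with it. All 10 genes of the macrophage list were detected in ZsG-positive DC2-like cells at a summed 3416 CPM, against 6 of 10 at 63.0 in ZsG-negative ones, where C1qa, C1qc and Ms4a7 were among those at 0. Their part in the Tgfbi level was not tested. When classes were instead set cell by cell from the markers, 82 ZsG-positive and 27 ZsG-negative DC2-like cells remained and Smad7 reversed to 0.37.

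In the T cell sort, Tgfbi was read mostly in a few ZsG-positive cells. All kept ZsG-positive cells held 366 Tgfbi UMIs (48.2 CPM) in 42 of 780 cells, and all kept ZsG-negative cells held 24 UMIs (4.88 CPM) in 7 of 659 cells, a log2 ratio of 3.30 (2.71 to 3.97). Most of these UMIs lay in cells with macrophage transcripts. A cell was set apart when its UMIs of C1qa, C1qb and Lyz2, genes of macrophages and monocytes, summed to more than 3. This held for 14 ZsG-negative cells (2.12%) and 65 ZsG-positive cells (8.33%), which contained all 24 and 344 (94.0%) of the Tgfbi UMIs.

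Below that limit, Tgfbi was at 0 in 645 ZsG-negative cells and at 22 UMIs in 2 of 715 ZsG-positive cells. Against a floor of 3 UMIs in place of the count of 0, ZsG-positive cells were 5.28-fold higher (log2 2.40). This bound leaves out the counting error of the 22 UMIs, and it rests on those 2 cells, with 16 and 6 Tgfbi UMIs. Both cells sat in the cluster of the T cell sort that macrophage genes lead, and each held exactly 3 Lyz2 UMIs beside CD3 UMIs. Without that cluster, Tgfbi was at 0 in 645 ZsG-negative and 0 in 703 ZsG-positive cells. The exact upper ends were 0.79 and 0.59 CPM, and 0.570% and 0.523% for the share of cells with a UMI. The floor of 3 UMIs lies at 0.64 and 0.48 CPM. These cells still held 63 and 189 UMIs of C1qa, C1qb and Lyz2. None of the 7 T cell classes below the limit, regulatory and exhausted cells included, had a Tgfbi UMI in either library.

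**Figure D3:**
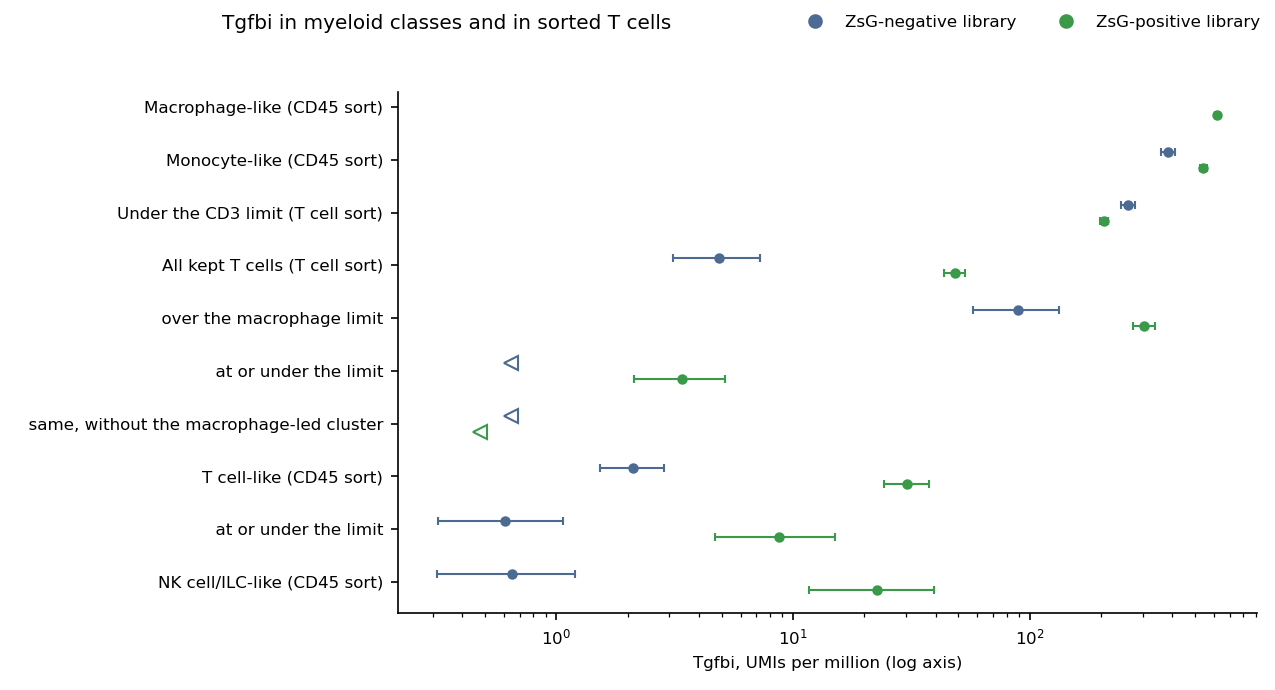
Tgfbi in CPM on a log axis, with exact 95% counting intervals, for myeloid classes of the CD45 sort and for cells of both sorts, in part split at the macrophage limit. Open triangles mark 0 UMIs, drawn at a floor of 3 UMIs. Sorted T cells at or under the macrophage limit and outside the macrophage-led cluster lie there in both libraries (0.64 and 0.48), below the 616 of macrophages.

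Tgfbi was also set against the 3 macrophage transcripts themselves, and the ratio varied between cells. In the ZsG-positive CD45 library, there were 4.62 Tgfbi UMIs per 100 UMIs of C1qa, C1qb and Lyz2 in macrophage-like cells, from 4.10 in the Ms4a7-led to 7.06 in the Mmp12-led cluster. Monocyte-like cells held 3.22, with 1.71 in the Hpgd-led cluster, and DC1-like, DC2-like and mature DC-like cells 5.86, 6.01 and 6.07. T cell-like cells held 3.71 and NK cell/ILC-like cells 4.24 on 12 Tgfbi UMIs (2.17 to 7.52). Below the limit these became 5.42 (2.84 to 9.44) and 6.37 (3.00 to 12.0). The limit uses the same 3 transcripts as the ratio, so leaving out cells over it can raise the ratio by itself. Nothing is therefore read from a ratio below the limit. In the ZsG-positive T cell library the ratio was 4.52 over all kept cells, 4.72 in the macrophage-led cluster and 11.2 (6.87 to 17.5) below the limit, the last on the 2 cells above. The ZsG-negative libraries gave 1.68 in monocyte-like, 1.99 in NK cell/ILC-like, 2.23 in T cell-like, 7.29 in DC2-like and 13.7 in DC1-like cells, and 1.94 over kept cells of the T cell sort.

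The CD45 sort held few ZsG-positive T cell-like cells, 216 against 1537. Below the same limit, Tgfbi was 8.76 against 0.61 CPM (13 against 12 UMIs, log2 ratio 3.85, 2.60 to 5.11). The macrophage list moved with it at a summed 146 against 7.21 CPM, all 10 genes detected on the ZsG-positive side and 9 on the other, where Mrc1 was at 0. NK cell/ILC-like cells below the limit gave 26.0 against 0.66 (10 UMIs on each side, log2 ratio 5.31, 3.89 to 6.73), beside a macrophage list of 357 against 9.24. In NK cells, 1 of the 8 genes was higher (Tgfbi) and 1 lower (Ski, 18.2 against 28.5 on 7 UMIs), beside 14.5% and 20.5% of 10632 genes. What part of these Tgfbi levels came with the macrophage transcripts was not tested.

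In sorted T cells, Tgfbr2 and Smad3 were the members lower past 1.5-fold in the ZsG-positive library below the limit. Tgfbr2 was 56.8 CPM in ZsG-positive and 92.2 in ZsG-negative cells, a log2 ratio of -0.70 (-0.90 to -0.49). It fell just short of the limit with the T cell classes weighted equally (-0.54) and without the CD3 minimum (-0.58). Smad3 was 11.6 against 18.1, a log2 ratio of -0.64 (-1.11 to -0.17). Smad7 was lower but short of the limit, 219 against 294 (-0.43, -0.53 to -0.32), and Tgfb1 was the other way, 111 against 91.1 (0.29, 0.11 to 0.46). Tgfbr1 (-0.38), Ski (-0.26) and Skil (-0.17) had intervals that included 0, and without the CD3 minimum Tgfbr1 turned to 0.29 and Skil to 0.05. Smad3 fell short of the limit with classes weighted equally (-0.50), with per-cell means (-0.33) and without the 5% of cells with the most UMIs (-0.58).

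Counting all kept T cells, 1 of the 8 genes was higher (Tgfbi) and 1 lower (Tgfbr2), beside 13.8% and 7.01% of 10405 genes. Below the limit the counts were 1 and 2, beside 12.1% and 7.58% of 10014 genes. On the ZsG-positive side below the limit the macrophage list was detected in all 10 genes at a summed 53.9 CPM, and on the ZsG-negative side in 9 of 10 (Mrc1 at 0) at 15.7. CD45-sorted T cell-like cells below the limit had 1 member higher and 3 lower, beside 9.15% and 12.3% of 10967 genes. With at least 100 UMIs in place of 20, the shares of genes higher became 8.95% (all sorted T cells), 7.84% (below the limit), 5.22% (CD45 T cells) and 9.32% (NK cells), and that of genes lower in CD45 T cells 6.89%, each over 1.5 times smaller. Tgfbr2 was again 36.4 against 57.4 there (-0.66, -1.08 to -0.26), while Tgfbr1 and Smad3, the other 2, rested on 7 and 8 ZsG-positive UMIs and had intervals that included 0.

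**Figure D4:**
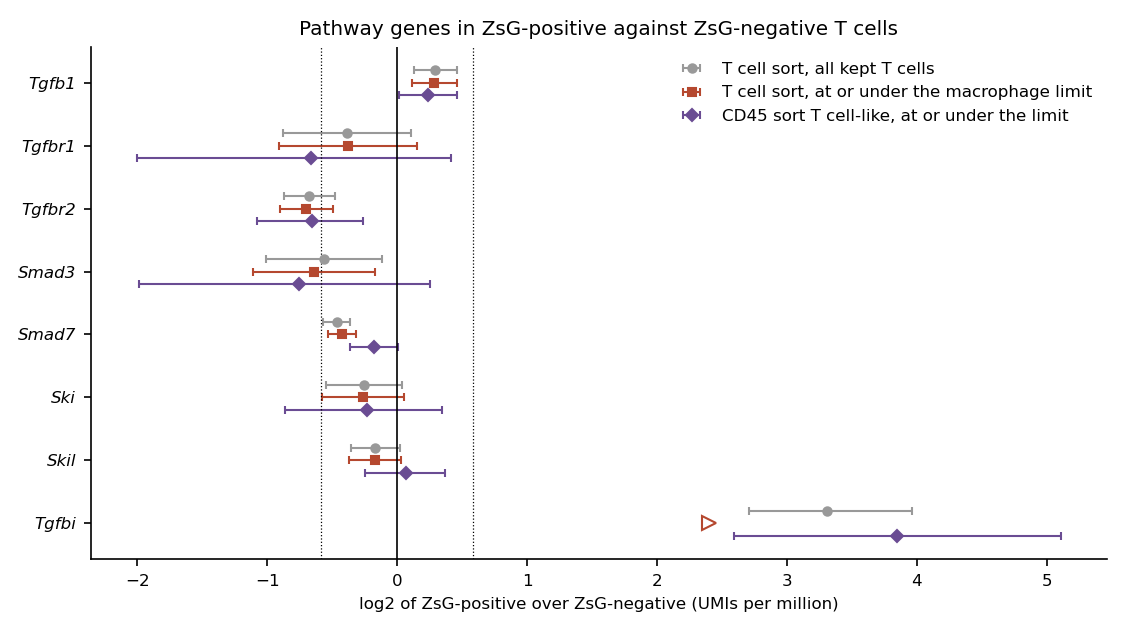
Log2 ratio of ZsG-positive over ZsG-negative CPM (horizontal axis) for the 8 genes in all kept sorted T cells, in sorted T cells at or under the macrophage limit, and in CD45-sorted T cell-like cells at or under it, with exact 95% counting intervals, dotted lines at 1.5-fold and an open triangle for a lower bound. Tgfbr2 is at -0.70 and -0.66 at or under the limit in the 2 sorts, and Tgfb1 is above 0 in all 3 sets.

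The T cell classes of the sort did not take equal shares of the 2 libraries. Regulatory T cells (Treg-like, led by Areg and Foxp3) numbered 28 ZsG-negative and 106 ZsG-positive cells, CD8 exhausted-like cells 68 and 155, cycling cells 25 and 70, and Naive-like cells 125 and 63. Levels were therefore also read within each class below the limit, and as a mean in which the 7 classes weigh equally. With equal weights Tgfbr2 was 64.5 against 93.8 (-0.54, short of the 1.5-fold limit), Smad7 281 against 294 (-0.06) and Tgfb1 94.5 against 93.6 (0.01).

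Tgfbr2 was lower in 4 of the 7 classes and higher in 3, and 57.2% of 2994 genes with enough UMIs in every class were lower in as many or more. It was lower past 1.5-fold in 3 classes, as was Skil, beside 3.14% of these genes, and since both were picked with such ratios known nothing is read from that share. In Naive-like cells it was 63.0 in ZsG-positive against 129 in ZsG-negative cells (-1.03, -1.74 to -0.38). In Th1-like cells, named after the interferon-making helper type by markers other than Ifng, it was 78.5 against 187 (-1.25, -2.16 to -0.42). In Treg-like cells it was 24.4 against 56.1 on 17 and 9 UMIs (-1.20, -2.45 to 0.15), an interval that included 0. CD8 effector memory-like cells held 116 against 109 and the Klra-led class 100.4 against 98.3, with ratios of 0.08 and 0.03.

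Smad7 differed more between classes than between libraries. Cycling and CD8 exhausted-like cells held 138 and 165 CPM in the ZsG-negative library, and the Klra-led class and Th1-like cells 408 and 395. The log2 ratios between libraries ran from -0.44 (-0.79 to -0.10) in Naive-like cells, where the interval excluded 0, to 0.18 (-0.24 to 0.59) in Th1-like cells, with 4 classes below 0 and 3 above. Tgfb1 was low in Naive-like cells (44.7 in ZsG-positive and 48.2 in ZsG-negative) and highest in cycling cells (139 in ZsG-positive and 147 in ZsG-negative) and in ZsG-positive Treg-like cells (145, against 93.5 in ZsG-negative ones, log2 ratio 0.63, -0.16 to 1.52). In the Klra-led class it was 39.8 against 82.5 (-1.05, -1.80 to -0.36), opposite to the sort as a whole. Skil split by class as well, higher in ZsG-positive CD8 effector memory-like cells (113 against 73.7, 0.62, 0.17 to 1.07) and lower in ZsG-positive Th1-like cells (83.4 against 212, -1.34, -2.22 to -0.55).

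**Figure D5:**
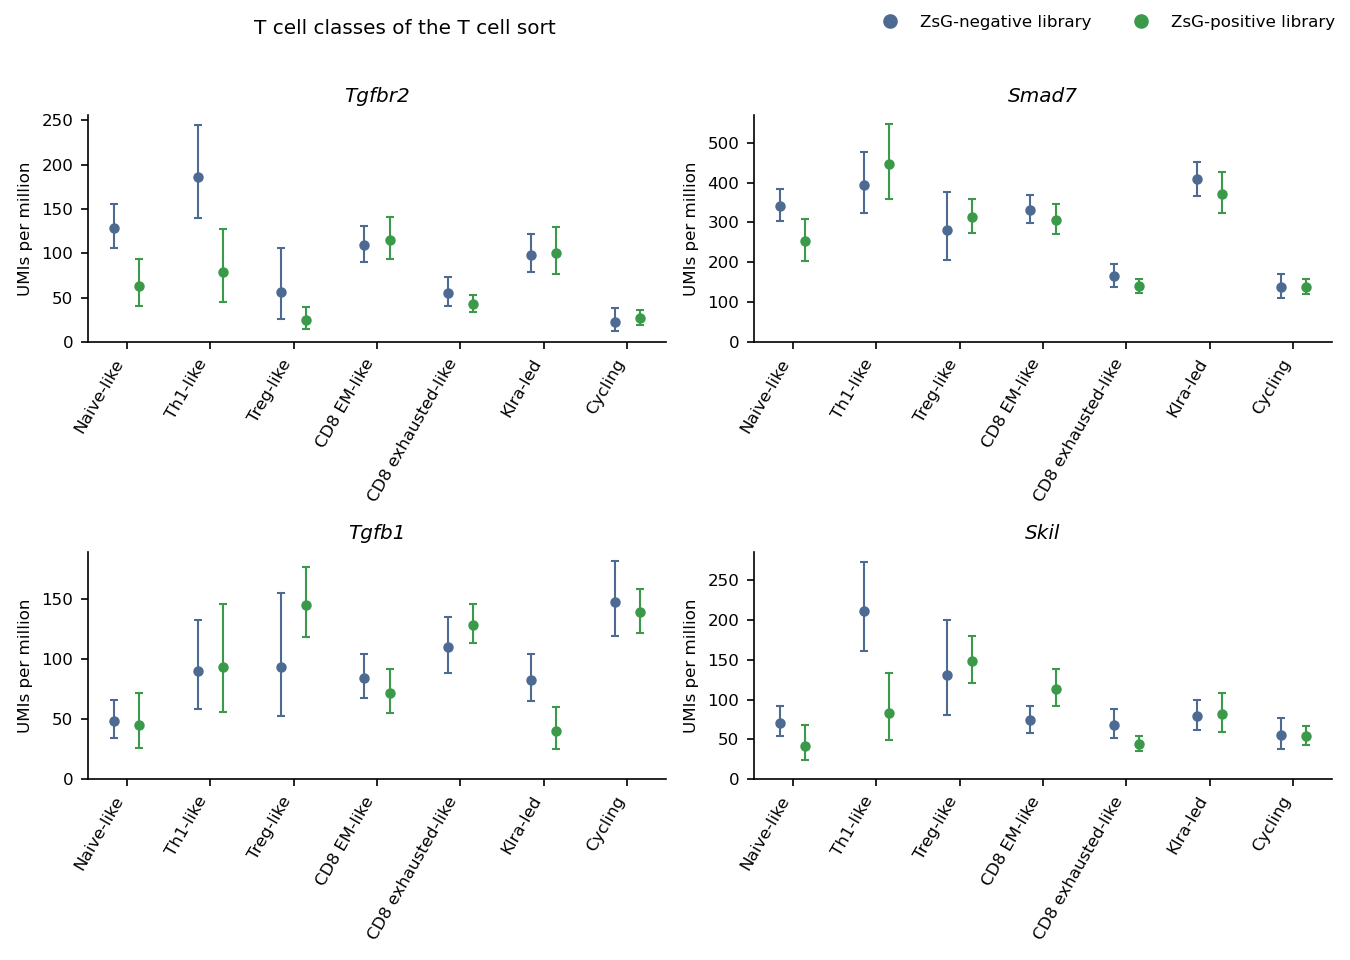
Tgfbr2, Smad7, Tgfb1 and Skil in CPM (linear axes from 0, exact 95% counting intervals) in the 7 T cell classes of the T cell sort, with cells over the macrophage limit left out, for the ZsG-negative and ZsG-positive library. Tgfbr2 lies lower on the ZsG-positive side in Naive-like (63.0 against 129) and Th1-like cells (78.5 against 187), and Smad7 differs more between classes than between libraries.

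Pathway genes outside the 8 were read in sorted T cells too. Below the limit, 33 of the 53 had enough UMIs, 8 were higher and 4 lower in ZsG-positive cells, and their median log2 ratio was -0.18 beside 0.05 for all genes. These counts stand beside the 12.1% of all genes higher and 7.58% lower in this comparison. Of 4 receptor genes with enough UMIs, 3 were higher and 0 lower. Of the 6 genes of ligands and activation with enough UMIs, from 15 listed, 4 were higher and 0 lower. Itgb8, the integrin chain that activates TGF-beta, was 12.5 against 1.72 CPM (2.87, 1.82 to 4.13), Lrrc32, which holds latent TGF-beta on regulatory T cells, 12.4 against 4.94 (1.32, 0.64 to 2.06), Itgav, the partner chain of Itgb8, 73.5 against 42.3 (0.80, 0.55 to 1.04), and Mmp14 2.79 against 0.64 on 18 and 3 UMIs. Mmp14 was also a macrophage gene here (65.2 CPM), and the part of the macrophage transcripts (a summed 53.9 against 15.7) in its ratio was not tested. Within Treg-like cells, which use Itgb8 and Lrrc32 and were more numerous in the ZsG-positive library, Itgb8 was 46.0 against 6.23 CPM on 32 and 1 UMIs. Of the ligand and activation genes with enough UMIs, 2 of 4 were higher in Treg-like and 1 of 2 in Klra-led cells. In Naive-like cells 0 of 1 was higher, in Th1-like 0 of 2 and in CD8 effector memory-like 0 of 3. In CD8 exhausted-like cells it was 0 of 3, and Th1-like and CD8 exhausted-like cells each had 1 lower. The part of the class mix in the Itgb8 and Lrrc32 ratios was not tested.

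The lower genes were Pmepa1 (77.7 against 132, -0.77, -0.94 to -0.60), Smad1, Bambi and Ldlrad4. In addition to feedback by Pmepa1, Bambi codes for a decoy receptor and Ldlrad4 for another inhibitor of the pathway. Pmepa1 was also lower in CD8 exhausted-like cells taken alone (36.8 against 76.4, -1.05, -1.56 to -0.54). Pmepa1 was listed with the pathway's regulators. Of the regulators with enough UMIs, 0 of 7 were lower past 1.5-fold in Naive-like, 0 of 6 in Th1-like, 0 of 7 in Treg-like and 0 of 7 in CD8 effector memory-like cells. In CD45-sorted T cell-like cells below the limit Pmepa1 was lower again (20.9 against 59.0, -1.50, -2.06 to -0.99). In these CD45-sorted cells, 34 genes had enough UMIs, 5 higher and 7 lower, beside 9.15% and 12.3% of all genes. Lrrc32 (10.8 against 5.08) and Cdkn1a (109 against 54.7) were on the higher side.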

How the data were processed

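Cells from 4 droplet libraries (10x Genomics 3' v3.1 chemistry) were measured, 1 per group. Per the labels and file headers, the authors made UMI counts per gene and cell with Cell Ranger (6.1.2 in the labels and the T cell file, 7.0.0 in the CD45 file) on mm10, and deposited 1 combined matrix of counts per sort. The sources used here do not say whether aggregation equalised depth. Groups came from the labels. Barcodes were assigned to libraries by suffix order.

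The deposited counts held 5437 ZsG-negative and 5168 ZsG-positive CD45 barcodes (47537541 and 56510578 UMIs) and 1136 and 2396 T cell barcodes (10030971 and 22100220 UMIs). CD45 cells with 1000 to 6000 genes and under 10% mitochondrial UMIs were kept (8822), and T cells with at least 50 and under 6000 genes, under 15% mitochondrial UMIs and at least 0.055% CD3 UMIs (1439). No doublet caller was run, and the upper gene limit is the only treatment of doublets. With R 4.3.3 and Seurat 5.3.0, cells were clustered on 20 principal components of 2000 variable genes at resolution 0.8 (CD45 sort, 16 clusters) and 1.2 (T cell sort, 12), and clusters were named from fixed markers. The members and the pathway list were left out of the variable genes. These names were rebuilt and may differ from those of the study.

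UMIs were summed per class and library and divided by the class total (CPM, UMIs per 1000000). With 1 library per group no test was made. Intervals (95%) were computed with Python 3.11.15, numpy 2.4.6, scipy 1.17.1 and pandas 2.3.3, and figures with matplotlib 3.10.9. The script was tested on simulated data. The members, lists and settings were chosen with earlier results of these data known. All members were named, and of the pathway list at most the 4 furthest genes in each direction past 1.5-fold, with at least 20 UMIs and an interval clear of 0. Genes added to explain a class or a marker were chosen after their values were seen. Alternatives changed totals, per-cell means, cell filters, class rule, clustering, the CD3 minimum and the macrophage limit.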

Additional observations from a re-analysis of the deposited data

Results flagged for a closer look

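Skil, a corepressor of SMAD complexes, went in opposite directions between ZsG-positive and ZsG-negative cells of different classes of the T cell sort. Its log2 ratio was 0.62 in CD8 effector memory-like cells (113 against 73.7 CPM), -1.34 in Th1-like cells (83.4 against 212) and -0.62 in CD8 exhausted-like cells (44.2 against 68.0). The 3 counting intervals each lie wholly on their own side of 0, and the difference between classes was not tested, since each class holds 1 library per group.

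Cells of the T cell sort that fell under the CD3 minimum were not used in the comparisons of T cells, but held Tgfbi. The level was 260 CPM (243 to 279) in the 289 ZsG-negative and 206 (198 to 215) in the 1099 ZsG-positive cells, and 30.1% and 22.8% of them had a Tgfbi UMI. Per 100 UMIs of C1qa, C1qb and Lyz2 they held 3.64 and 4.47 Tgfbi UMIs.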

How the results depend on the processing

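No paired analysis was possible because each group is 1 library, and for the same reason no library could be left out. Of 76 values of the 9 main results under other settings, 56 stayed within the counting interval, 19 moved and 1 reversed. Leaving mitochondrial and ribosomal protein genes out of the totals put Tgfb1 at 0.29 for monocytes and macrophages over T cell-like and NK cell/ILC-like cells, and for the opposite ratio Tgfbr1 at -1.01 and Tgfbr2 at 0.92. A mean of per-cell levels gave -0.91 and 1.07 for these 2 receptors and -0.25 for Smad7 in sorted T cells below the macrophage limit. For Tgfbr2 between the same classes a 5% mitochondrial limit gave 0.50 and leaving out the 5% of cells with the most UMIs 0.76, and in sorted T cells the 5% limit gave -0.91. Tgfbi in macrophages over monocytes was 0.29 with classes set cell by cell and 0.29 with 10 principal components. In all sorted T cells Tgfbi was 2.12 with no cell filter, 6.39 with classes set cell by cell (121 against 1 UMIs), 0.46 without the CD3 minimum and a bound of 0.27 without the macrophage-led cluster (5 against 0 UMIs), a setting chosen after seeing the data. Below the macrophage limit Tgfbi was a bound of 0.57 with classes set cell by cell and reversed to -0.53 without the CD3 minimum (91 against 62 UMIs). There Smad7 was -0.73 without the CD3 minimum and -0.065 with classes weighted equally, which also put Tgfb1 at 0.013. Among 533 values of other member ratios, 53 moved and 34 changed sign, and only Smad7 in DC2-like cells reversed, to 0.37 with classes set cell by cell. Where a setting left 0 UMIs on both sides, Tgfbi has no value: leaving out cells with any C1qa, C1qb or Lyz2 UMI, and the macrophage-led cluster left out below the limit. Equal class weights, and per-cell means below the limit, also gave no value, because at least the ZsG-negative side was at 0. Where settings change which cells enter, that is the change made, and any other cause was not tested. With at least 100 UMIs in place of 20, 13 of the 18 background percentages stayed within 1.5 times, and the 5 that did not were of T and NK cells. Thinning to 2000 UMIs moved 60 of 64 shares of cells outside the interval of the thinned share, so shares depend on depth.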

Other observations

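The genes whose levels across the 25 classes and libraries with at least 50 cells followed those of Tgfbi most closely were Csf1r (Pearson r 0.986), the receptor of the macrophage growth factor, Clec4a3 (0.980), Wdfy3 (0.980), Lrrc25 (0.980) and Slamf8 (0.979). For Smad7 they were Gimap9 (0.973), Abhd8 (0.972), Jakmip1 (0.972), the lymphocyte transcription factor Ets1 (0.972) and Gimap6 (0.969). Tgfbr2 was followed less closely, with Asb13 at 0.902 and Gm49602 at 0.887, and Tgfb1 least, with Mapkapk2 at 0.860 and Map3k11 at 0.855. These correlations were taken over log2 levels of 10168 genes, and the points share libraries and cells, so they describe likeness of pattern only.

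In DC2-like cells, 36 pathway genes had enough UMIs, 11 were higher and 6 lower in the ZsG-positive library, beside 20.5% and 17.2% of all genes. The median log2 ratio of the pathway genes was 0.15 beside -0.01 for all genes. Thbs1 was 45.3 against 2.70 CPM, Mmp14 30.1 against 3.60 and Furin, a protease that cuts the TGF-beta precursor, 136 against 19.8. Pmepa1 was 22.1 against 112. Thbs1 and Mmp14 are genes that macrophages also held (the macrophage markers of these DC2-like cells are given above), and their part in these ratios was not tested.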
